A study of Mus musculus with 36 samples.

Results

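The genes described here are 10 transcripts of the ATF4 stress response, Trib3, Atf4, Ddit3, Asns, Chac1, Sesn2, Psat1, Phgdh, Atf3 and Fgf21, out of 24421 genes counted in mouse liver. They were chosen by symbol, with earlier results of the same libraries known, and Trib3 in particular was picked because it was lower in treated mice. Its difference is therefore given as a description with no p-value, and the tests of the other 9 are not independent evidence of their direction. All 36 livers came from male C57BL/6J mice, bought at 7 weeks of age, that were given the CDAHFD, a fat-rich diet that lacks choline and has defined amino acids, for 12 weeks, which gives a fatty and fibrotic liver. In the first experiment they were then switched for 2 weeks to a high-fat diet (HFD), with a weekly subcutaneous injection of 4.3 mg/kg Fc (10 mice) or 5 mg/kg Fc(mML1)B3 (10 mice). In the second experiment they received a standard diet for 10 days, with 4.3 mg/kg Fc (9 mice) or 5 mg/kg Fc(mML1)B3 (7 mice) on days 1, 4 and 7. Fc is the crystallizable fragment of an antibody, and Fc(mML1)B3 is the same fragment carrying grafted cyclic peptides that bind and activate Met, the receptor of hepatocyte growth factor. All 4 groups had received the CDAHFD, so each Fc group is a control for the injected protein in a liver already exposed to that diet.

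ATF4 is a transcription factor whose mRNA is translated more when the kinases of the integrated stress response phosphorylate the initiation factor eIF2. Those kinases respond to unfolded protein in the endoplasmic reticulum, to amino acid shortage, to viral RNA and to heme shortage. ATF4 then raises enzymes of amino acid synthesis, amino acid transporters and tRNA synthetases, and also Ddit3, Atf3 and Trib3, which act later in the response. Because ATF4 is controlled mainly at translation, its mRNA level alone does not report its activity, and no protein was measured in these data.

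Trib3 encodes a pseudokinase that binds ATF4 and Ddit3 and the kinase Akt. It was lower with Fc(mML1)B3 in both experiments, which is what it was chosen for. Of the other 9 members, 1 passed the test under the HFD, Atf4, which rose, and 0 under the standard diet, where 14.8% and 16.1% of all genes tested passed. Between the experiments Psat1, Atf3 and Fgf21 were lower under the standard diet in Fc and in Fc(mML1)B3 mice, in comparisons where 49% and 38.2% of all genes passed. Values are CPM, read counts scaled to the library total after TMM adjustment, which evens out differences in composition between libraries, and a gene passed the test when its adjusted p was below 0.05 in the quasi-likelihood test of edgeR, fitted and adjusted over all genes tested.

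The binding motif of ATF4 with its C/EBP partners, the C/EBP-ATF response element, was searched in the promoter windows of RefSeq on GRCm38.p6, which run from 250 bases before to 50 bases after each gene's start. Its core, TGATGNAA, was present on either strand in 3.97% of the 32851 windows. Among the members it was found in 5 of 10 genes, all of which had a window, and the matches are shown here because this is the element through which ATF4 is known to act. Atf4, Ddit3, Sesn2, Psat1 and Phgdh had no match. The element occurs in Trib3, Asns, Chac1, Atf3 and Fgf21, and each run of 30 bases is printed on the gene's own strand with the match in capitals.
Trib3: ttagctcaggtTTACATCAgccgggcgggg
Asns: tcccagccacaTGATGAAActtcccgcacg
Chac1: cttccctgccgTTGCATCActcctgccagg
Atf3: ccttctcgcacTTGCATCAccaagtccgcg
Fgf21: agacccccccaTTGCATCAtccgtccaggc
The Trib3 run lies at chr2:152344028-152344057 (minus strand), with the match on the opposite strand 14 to 21 bases after the annotated start and so inside the gene. The Asns run lies at chr6:7693214-7693243 (minus strand), with the match 23 to 16 bases before the start on the gene's own strand. In Chac1, at chr2:119351038-119351067 (plus strand), the match is 193 to 186 bases before the start on the opposite strand. Atf3, at chr1:191183425-191183454 (minus strand), carries it 110 to 103 bases before the start, and Fgf21, at chr7:45615611-45615640 (minus strand), slightly farther upstream, both on the opposite strand. Chac1, Atf3 and Fgf21 share the same 8 bases, while Trib3 and Asns each have another base at the free position. The full cyclic AMP response element, TGACGTCA, and the endoplasmic reticulum stress element were in none of the members' windows on either strand and in 1.79% and 0.119% of all windows. A match is a description of the letters in the window, and its absence says only that these letters are not there.

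Library totals ran from 14949035 to 28466853 counts, with a median of 23558194.5. All 10 members passed the filter on low counts in all 5 comparisons. Hepatocyte markers were present in every library, summing to between 70799 and 147525 CPM over 6 genes. Clock genes differed between the protein groups in both experiments, with 5 higher and 7 lower of 13 with Fc(mML1)B3 under the HFD, where 8.14% of all genes were higher and 6.68% lower, and 7 higher and 4 lower of 14 under the standard diet, where 8.56% and 7.55% were. Arntl, a core clock activator, averaged 1.19 ± 0.497 CPM with Fc and 18.6 ± 8.09 CPM (SD of 10 mice each) with Fc(mML1)B3, and Dbp, a clock output factor, was 99.8 ± 20.5 and 9.94 ± 8.02 CPM (SD, n = 10 each), with no overlap of the HFD groups for either gene. Under the standard diet Arntl moved the other way, from 3.97 ± 1.33 to 1.92 ± 1.01 CPM (SD of 9 and 7 mice), while Dbp was 68.8 ± 16.9 and 75.9 ± 22.6 CPM. Nr1d1, a clock repressor, fell there from 129.7 to 40.4 CPM and under the HFD from 83.0 to 10.4 CPM. The part of the clock genes in the results below was not tested. Fc mice 7 and 8 of the HFD experiment stood apart in neutrophil genes, with 22.04 and 19.9 CPM of S100a8 against 1.59 to 5.89 CPM in the other 8 Fc mice. In the other experiment Fc mouse 5 likewise had 25.4 CPM, and no member's call there changed without it. Under the HFD the 4 neutrophil markers summed to 4.17 to 53.7 CPM with Fc and 3.87 to 9.70 CPM with Fc(mML1)B3, and both markers that passed the filter on low counts fell. In the same comparison 2 of 4 B cell markers fell, with a median log2 fold change of -0.62 over the 4, and 0 of 4 T and NK cell markers passed, with a median of -0.51. With Fc(mML1)B3 under the standard diet 1 of 6 stellate cell and fibroblast and 1 of 4 cholangiocyte markers fell, with medians of -0.27 and -0.37. There 0 of 5 macrophage, 0 of 4 B cell and 0 of 4 T and NK cell markers passed, with medians of -0.11, 0.41 and -0.06. The part of these cells in the results was not tested. Values without mice 7 and 8 are given where they change a result, and without them Trib3 fell by 1.24 on the log2 scale under the HFD.

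Within a library, levels can be compared between genes once divided by exon length. Per kilobase, Atf4 was the most abundant member in all 4 groups, with group medians of 48.3 to 59.7 CPM per kilobase. Ddit3 came next in each group at 6.65 to 10.7 CPM per kilobase, and Phgdh was the lowest at 0.314 to 0.755 CPM per kilobase. Trib3 held 1.48 to 5.59 CPM per kilobase and changed rank with the group, from the fifth highest in Fc mice under the standard diet to the seventh in Fc(mML1)B3 mice under the HFD. Atf4, at 1292 to 3123 reads per library, had far more reads behind its values than Phgdh, at 2 to 56. Both ends of a pair were counted as reads, and 77.5% of counts from 2 to 20 were even, so the independent fragments are fewer than the reads given here.

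Trib3 was lower in Fc(mML1)B3 mice than in Fc mice under both diets. Under the HFD the lowest, median and highest Fc mice had 3.93, 6.60 and 16.9 CPM, and the Fc(mML1)B3 mice 2.24, 3.04 and 5.16 CPM. The groups overlapped, but 7 of the 10 Fc mice lay above every Fc(mML1)B3 mouse, and as many treated mice (7 of 10) lay below every Fc mouse. Fc mice 1, 2 and 7 were the highest, with 16.9, 13.1 and 11.6 CPM, and the other 7 Fc mice held 3.93 to 7.68 CPM. Fc mice averaged 8.17 ± 4.32 CPM and treated mice 3.42 ± 0.985 CPM (each with its SD, n = 10), a ratio of 2.39 and a log2 fold change of -1.24 ± 0.25 (SE). In whole liver, fewer cells of a type and less RNA per cell cannot be told apart.

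Under the standard diet the Trib3 groups did not overlap. The 9 Fc mice ran from 8.98 through a median of 11.5 to 14.1 CPM, and the 7 Fc(mML1)B3 mice from 2.95 through 4.34 to 5.28 CPM. Every Fc mouse was therefore higher than every Fc(mML1)B3 mouse. Fc mice averaged 11.3 ± 2.07 CPM (SD of 9 mice) against 4.23 ± 0.932 CPM (SD of 7 mice), a ratio of 2.66 and a log2 fold change of -1.41 ± 0.14 (SE). The share of all 13570 genes tested whose groups did not overlap was 2.9%, and under the HFD it was 0.962% of 13299. Trib3 was the only member whose groups separated, under the standard diet, and since it was chosen for this difference nothing is read from that count.

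**Figure D1:**
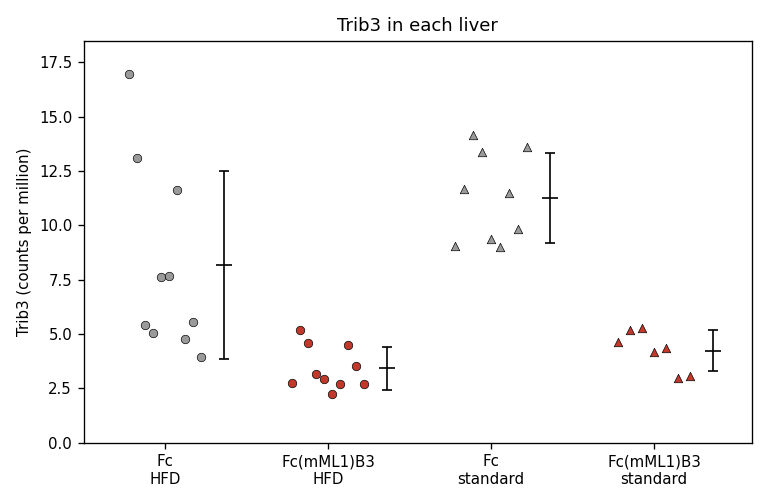
Trib3 in each liver. The y axis gives CPM, each point is 1 mouse, and the cross bar and whiskers give the mean ± SD. The 7 Fc(mML1)B3 mice of the standard diet lie between 2.95 and 5.28 and all 9 Fc mice above them, whereas under the HFD the groups overlap and 3 Fc mice lie above 11.

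The order of the 4 groups in Trib3 was Fc under the standard diet, Fc under the HFD, Fc(mML1)B3 under the standard diet and Fc(mML1)B3 under the HFD. Neighbours in that order overlapped in every case. The Fc groups of the 2 experiments differed by 0.45 ± 0.23 on the log2 scale and the Fc(mML1)B3 groups by 0.28 ± 0.18, both higher under the standard diet. Neither passed in edgeR, but the first did in 3 of 29 alternatives, at 0.58 in limma-voom and at 0.64 and 0.57 without Fc mouse 1 or 2 of the HFD. The effect of the protein differed between the experiments by -0.16 ± 0.31 on the log2 scale (standard diet minus HFD), less than its standard error.

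The libraries carry numbers that fall into separate series, and these go together with the groups in part. Under the HFD the numbers of the Fc(mML1)B3 libraries started again at mouse 5, which gave 2 series. The Fc libraries of that experiment were kept together as 1 group. Whether they shared a series with Fc(mML1)B3 libraries was not examined, so number series and protein are not separated there. In the 2 Fc(mML1)B3 series Trib3 was 3.91 ± 1.15 and 3.09 ± 0.797 CPM (SD of 4 and 6 mice), both below the Fc mean. With only the 4 libraries of the first series, the log2 fold change of Trib3 was -1.044, and with the 6 of the other it was -1.38. In the 4-library fit 0 of the 10 members passed the test, where 705 of 13824 genes did. Under the standard diet 4 Fc libraries shared a series with all 7 Fc(mML1)B3 libraries. Within it Trib3 was 10.97 ± 2.04 CPM in 4 mice against 4.23 ± 0.932 CPM in 7 (SD), again without overlap, and the 5 Fc libraries outside it had 11.5 ± 2.30 CPM.

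Trib1 and Trib2, the other Tribbles pseudokinases, did not pass the test with Fc(mML1)B3 in either experiment. Trib1 was 37.0 and 37.8 CPM in Fc and treated mice of the HFD experiment, a log2 fold change of 0.04 ± 0.11 (SE), and 41.0 and 42.6 CPM under the standard diet, 0.06 ± 0.12. Trib2 was 6.85 and 7.26 CPM under the HFD, 0.09 ± 0.14, and 3.96 and 4.01 CPM under the standard diet, 0.02 ± 0.13.

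Atf4 and its partner Ddit3, also called CHOP, are the transcription factors of the list together with Atf3. Under the HFD, Atf4 was 76.9, 83.4 and 102 CPM in the lowest, median and highest Fc mouse and 84.0, 103 and 131.9 CPM with Fc(mML1)B3. All 10 Fc(mML1)B3 mice lay above the Fc median, 5 of them above every Fc mouse, and the groups overlapped. Atf4 rose by a log2 fold change of 0.31 ± 0.08 (SE), with an adjusted p of 0.00734 in edgeR's quasi-likelihood test. This was a rise in mean from 84.4 ± 7.07 to 105 ± 14.6 CPM (SD, n = 10 each). Using only the 4 Fc(mML1)B3 libraries of the first number series, the difference was 0.23 and the adjusted p 0.112. Under the standard diet Atf4 ran from 74.8 to 97.6 CPM (median 86.2) with Fc and from 75.3 to 104 CPM (median 90.8) with Fc(mML1)B3. These ranges nearly coincided, and the log2 fold change was 0.04 ± 0.07 (SE) with an adjusted p of 0.733. Atf4 therefore did not pass in the direction of Trib3 in either experiment.

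Ddit3, which promotes cell death in prolonged stress, had opposite signs in the 2 experiments. Under the HFD it ran from 5.03 through 6.60 to 12.6 CPM with Fc and from 7.46 through 9.32 to 16.6 CPM with Fc(mML1)B3. Although all 10 Fc(mML1)B3 mice lay above the Fc median, Fc mice 7 and 8, at 12.0 and 12.6 CPM, were among the highest of both groups, and the difference did not pass in edgeR (0.39 ± 0.17 SE, adjusted p = 0.127). In limma-voom it did, at 0.49 with an adjusted p of 0.0231. Without those 2 mice, an alternative chosen after seeing the data, the log2 fold change was 0.63 with an adjusted p of 0.00513, and without mouse 8 alone it was 0.50 with 0.0406. In the standard diet experiment the 9 Fc mice held 5.72 to 13.1 CPM (median 7.35) and the 7 Fc(mML1)B3 mice 4.45 to 9.04 CPM (median 5.80), and the difference did not pass either (-0.44 ± 0.18 SE, adjusted p = 0.114). Fc mice 1, 2 and 3, at 10.0, 13.1 and 11.6 CPM, were the highest there. The 4 Fc libraries of the number series that holds all Fc(mML1)B3 libraries of this diet averaged 6.86 CPM and the other 5 averaged 9.77 CPM, beside 6.24 CPM with Fc(mML1)B3. Against those 4 alone the log2 fold change was -0.14 with an adjusted p of 0.706.

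In edgeR 1 member, Ddit3, responded differently to the protein in the 2 experiments, by -0.82 ± 0.27 on the log2 scale (SE, adjusted p = 0.0440, edgeR interaction term), where 9.06% of 14105 genes did (4.66% higher and 4.4% lower). The share of 1 in 10 members is near that background. With Fc mice 7 and 8 left out the difference was -1.07 with an adjusted p of 0.00252, while with the replicate number as a block it was -0.95 and no longer passed (adjusted p = 0.0763). By number series, the standard diet difference was -0.14 with the 4 Fc libraries of the shared series, and the HFD difference was 0.24 with the 4 and 0.50 with the 6 Fc(mML1)B3 libraries of a series. The interaction was not refitted within these series. In limma-voom Atf4 passed as well, at -0.30 with an adjusted p of 0.0296, against -0.26 ± 0.10 (SE) and 0.123 in edgeR. Of the 871 exonic bases of Ddit3, 68 lie under an exon of Mars on the opposite strand. Reads were counted without regard to strand, so reads of the 2 genes within that stretch cannot be told apart.

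Atf3, an immediate early factor that ATF4 raises and that represses inflammatory genes, passed with Fc(mML1)B3 in neither experiment. Under the HFD it ran from 10.8 through 13.8 to 31.2 CPM with Fc and from 10.0 through 14.4 to 18.2 CPM with Fc(mML1)B3, a log2 fold change of -0.28 ± 0.18 (SE, adjusted p = 0.310, edgeR). The mean was higher with Fc while the median was lower, because Fc mice 4, 7 and 8 held 25.3, 24.95 and 31.2 CPM and the other 7 no more than 15.01. Without Fc mice 7 and 8 the log2 fold change of Atf3 was -0.026. In the second experiment the groups held 5.86 to 11.6 and 6.29 to 10.8 CPM, with -0.23 ± 0.14 (SE, adjusted p = 0.280).

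The amino acid genes of the list are Asns, which makes asparagine, and Phgdh and Psat1, successive enzymes of serine synthesis. None of the 3 passed with Fc(mML1)B3 under either diet in edgeR. Asns varied widely under the HFD, from 7.48 through 11.5 to 19.4 CPM with Fc and from 4.03 through 15.02 to 26.2 CPM with Fc(mML1)B3, a log2 fold change of 0.13 ± 0.27 (SE, adjusted p = 0.777). With the standard diet its range was 9.47 to 18.8 CPM with Fc and 8.37 to 17.6 CPM with Fc(mML1)B3, with -0.08 ± 0.15 (SE, adjusted p = 0.763). Both differences were smaller than their standard errors, and the groups overlapped over most of their range.

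Phgdh under the HFD was 0.378, 1.41 and 2.41 CPM in the lowest, median and highest Fc mouse and 0.135, 0.838 and 2.23 CPM with Fc(mML1)B3. The ranges overlapped almost fully, and the log2 fold change of -0.70 ± 0.37 (SE) had an adjusted p of 0.210 in edgeR. Without Fc(mML1)B3 mouse 5, the highest of its group, it was -0.99 with an adjusted p of 0.0442. Phgdh in the second experiment was 0.532 to 0.938 CPM with Fc and 0.211 to 0.876 CPM with Fc(mML1)B3 (-0.21 ± 0.26 SE, adjusted p = 0.637). Psat1 was 1.47 to 5.82 CPM with Fc and 1.34 to 4.67 CPM with Fc(mML1)B3 under the HFD (-0.27 ± 0.24 SE, adjusted p = 0.467), and 1.17 to 2.34 and 1.16 to 1.80 CPM under the standard diet (-0.04 ± 0.16 SE, adjusted p = 0.910). The highest Psat1 values were again in Fc mice 7 and 8, at 5.82 and 4.88 CPM, and without them the log2 fold change was -0.01.

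Chac1, an enzyme that degrades glutathione, was the most variable member, with a within-group SD of 0.83 on the log2 CPM scale, above that of 96.7% of the genes tested. Under the HFD the 10 Fc mice held 0.978 to 4.80 CPM (median 2.71) and the Fc(mML1)B3 mice 0.683 to 10.7 CPM (median 1.80). Fc(mML1)B3 mouse 2, with 241 reads, stood alone at 10.7 CPM, and the next highest of its group was at 3.10. The log2 fold change was -0.04 ± 0.37 (SE, adjusted p = 0.952, edgeR), and without mouse 2 it was -0.61 with an adjusted p of 0.132. In the second experiment Chac1 was 1.70 to 7.25 CPM (median 3.54) with Fc and 0.847 to 5.06 CPM (median 1.52) with Fc(mML1)B3, -0.75 ± 0.36 (SE, adjusted p = 0.174). Fc(mML1)B3 mice 1 and 3 held 4.55 and 5.06 CPM and the other 5 no more than 2.01, and without mouse 3 the difference was -1.08 with an adjusted p of 0.0455.

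Sesn2, a sestrin that restrains mTORC1 when leucine is short, and Fgf21, a hormone secreted by the liver in fasting and protein restriction, did not pass with Fc(mML1)B3 either. Sesn2 was 4.01 to 6.65 CPM with Fc and 3.88 to 7.56 CPM with Fc(mML1)B3 under the HFD (-0.06 ± 0.13 SE, adjusted p = 0.797, edgeR), and 5.78 to 9.60 and 4.66 to 7.53 CPM under the standard diet (-0.20 ± 0.12 SE, adjusted p = 0.266). Fgf21 was 0.743 to 4.89 CPM with Fc and 1.34 to 4.51 CPM with Fc(mML1)B3 under the HFD (-0.14 ± 0.27 SE, adjusted p = 0.758). With the standard diet it was 0.740 to 2.51 CPM with Fc and 0.672 to 2.07 CPM with Fc(mML1)B3 (-0.42 ± 0.27 SE, adjusted p = 0.314). The groups overlapped in each of these comparisons.

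**Figure D2:**
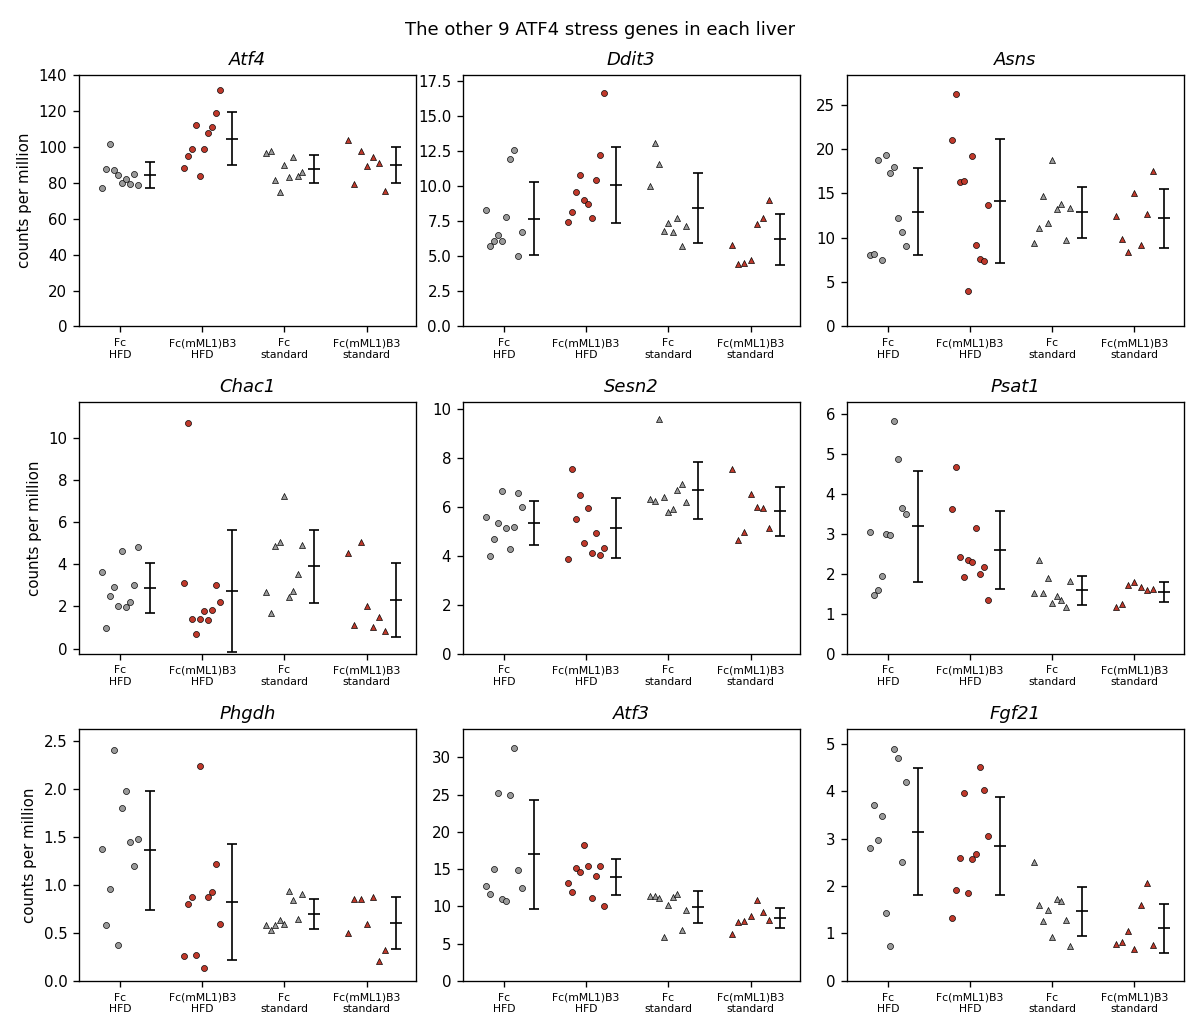
The other 9 members in each liver, in CPM on axes scaled for each gene, with the mean ± SD beside each group. Atf4 is higher with Fc(mML1)B3 under the HFD, Psat1, Atf3 and Fgf21 are lower under the standard diet in both protein groups, and single mice stand apart in Chac1 and Sesn2.

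Of the 9 members other than Trib3, 1 passed edgeR with the HFD, Atf4 higher, where 14.8% of the 13299 genes tested passed. With the standard diet 0 of the 9 passed, where 16.1% of 13570 genes did. DESeq2 gave the same counts and limma-voom 2 and 0, and 2 and 1 had an unadjusted p below 0.05. The median log2 fold change of these 9 was -0.06 with the HFD (6 of 9 negative) and -0.21 with the standard diet (8 of 9 negative). The median of all genes tested was -0.01 in both. Trib3 is left out here because it was chosen on these contrasts, and nothing is read from the counts. At the fold thresholds the study used, an adjusted p below 0.1 with a fold above 2 and one below 0.05 with a fold above 1.5, 0 of the 9 members other than Trib3 passed with Fc(mML1)B3, where 1.34% and 4% of genes did under the HFD and 0.604% and 2.36% under the standard diet. Between the diets these rules took 2 and 4 members in Fc mice (4.41% and 15.8% of genes) and 1 and 4 in Fc(mML1)B3 mice (3.49% and 11.7%), and in the interaction 0 and 1 (1.92% and 4.2%).

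**Figure D3:**
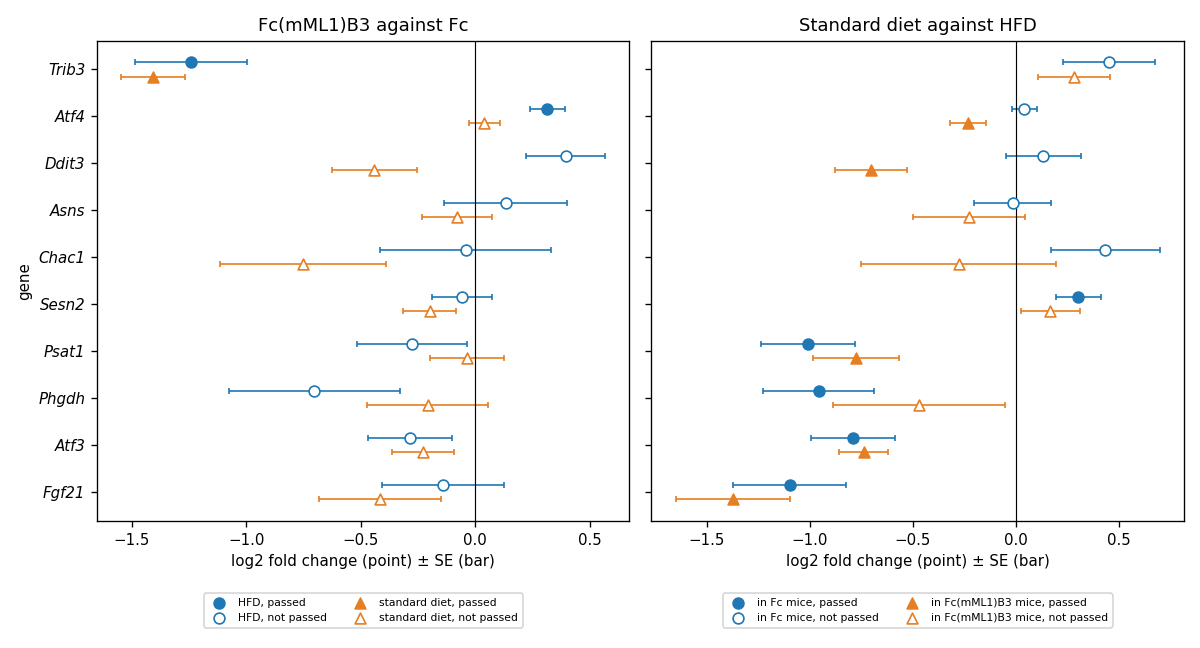
Log2 fold changes of the 10 members with their standard errors. The left panel compares Fc(mML1)B3 with Fc under each diet and the right panel the standard diet with the HFD within each protein group, and filled symbols passed an adjusted p of 0.05. Trib3 lies at -1.24 and -1.41 on the left, where its fill is not read, since it was chosen for that difference. Psat1, Atf3 and Fgf21 lie below -0.7 in both comparisons on the right.

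The 2 experiments were compared within each protein group. The diet went together with the experiment, the length of treatment and the dosing schedule, and these cannot be told apart. Each group also enters one of the comparisons of Fc(mML1)B3 with Fc above, so these are not independent of them. In Fc mice 5 members passed, where 49% of 13506 genes did, and in Fc(mML1)B3 mice 5 passed, where 38.2% of 13627 did, and neither share of the 10 members is read further. The share of genes without overlap between the experiments was 10% in Fc and 10.1% in Fc(mML1)B3 mice, and no member was among them. Of the genes tested 23.9% rose and 25.2% fell in Fc mice, and 19.1% did each in Fc(mML1)B3 mice. In Fc mice the serine enzymes Psat1 and Phgdh fell together with Atf3 and Fgf21, and Sesn2 rose. In Fc(mML1)B3 mice Atf4, Ddit3, Psat1, Atf3 and Fgf21 fell. Markers of other liver cells moved in the same comparisons. In Fc mice 3 of 4 T and NK cell markers, 3 of 4 B cell markers, 2 of 4 cholangiocyte markers, 3 of 6 stellate cell and fibroblast markers and 2 of 5 macrophage markers fell, with median log2 fold changes of -1.01, -0.60, -0.65, -0.37 and -0.22. Of the same lists 0, 0, 2, 3 and 1 markers fell in Fc(mML1)B3 mice, with medians of -0.54, 0.41, -0.86, -0.42 and -0.25. The summed stellate cell and fibroblast markers ran from 287 to 536 CPM under the HFD and from 284 to 425 CPM under the standard diet in Fc mice, and the T and NK cell markers from 3.44 to 12.2 and from 3.50 to 5.00 CPM. Their part in the values of the members was not tested.

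Fgf21 had the largest change among the members in both comparisons. In Fc mice it was 0.743, 3.23 and 4.89 CPM under the HFD and 0.740, 1.502 and 2.51 CPM under the standard diet, as the lowest, median and highest mouse, and all 9 standard diet mice lay below the HFD median. Fgf21 fell by 1.10 ± 0.27 on the log2 scale (SE, adjusted p = 0.00228, edgeR). In Fc(mML1)B3 mice it was 1.34, 2.63 and 4.51 CPM under the HFD and 0.672, 0.812 and 2.07 CPM under the standard diet, with 5 of the 7 standard diet mice below every HFD mouse. There it fell by 1.38 ± 0.28 (SE, adjusted p = 5.94e-04).

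Psat1 fell by 1.01 ± 0.23 on the log2 scale in Fc mice (SE, adjusted p = 9.60e-04, edgeR), from a mean of 3.18 ± 1.38 to 1.59 ± 0.367 CPM (SD, n = 10 and 9). In Fc(mML1)B3 mice it fell by 0.77 ± 0.21 (SE, adjusted p = 0.00620), from 2.59 ± 0.968 to 1.54 ± 0.246 CPM (SD, n = 10 and 7). In both, every standard diet mouse lay below the median of the HFD mice. Phgdh fell by 0.96 ± 0.27 in Fc mice (SE, adjusted p = 0.00576), from 1.36 ± 0.619 to 0.694 ± 0.155 CPM (SD, n = 10 and 9), and all 9 standard diet mice again lay below the HFD median. In Fc(mML1)B3 mice the difference in Phgdh was -0.47 ± 0.42 and did not pass (SE, adjusted p = 0.390).

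Atf3 fell by 0.79 ± 0.20 in Fc mice (SE, adjusted p = 0.00282, edgeR), from 16.999 ± 7.34 to 9.89 ± 2.14 CPM (SD, n = 10 and 9), and by 0.74 ± 0.12 in Fc(mML1)B3 mice (SE, adjusted p = 6.77e-05), from 13.9 ± 2.42 to 8.45 ± 1.39 CPM (SD, n = 10 and 7). Here 4 of the 9 standard diet Fc mice and 6 of the 7 treated ones were lower than every HFD mouse of their group. Without Fc mice 7 and 8, the falls in Fc mice were 0.54 for Atf3, 0.75 for Psat1, 0.86 for Phgdh and 0.90 for Fgf21 on the log2 scale, and all 4 still passed. With only the 4 standard diet Fc libraries of the shared number series, Phgdh fell by 0.69 and did not pass (adjusted p = 0.180).

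Sesn2 rose in Fc mice by 0.30 ± 0.11 on the log2 scale (SE, adjusted p = 0.0268, edgeR), from 5.34 ± 0.889 to 6.67 ± 1.15 CPM (SD, n = 10 and 9). Without Fc mouse 3 of the standard diet, at 9.60 CPM, the rise was 0.24 with an adjusted p of 0.0589, and without Fc mice 7 and 8 of the HFD 0.26 with 0.0686. The call was lost in 7 of 29 alternatives, among them the replicate block (0.33, adjusted p = 0.0544), upper quartile normalization (0.22, adjusted p = 0.0976) and only the 4 standard diet Fc libraries of 1 number series (0.27, adjusted p = 0.151). In Fc(mML1)B3 mice it was 0.17 ± 0.14 and did not pass (SE, adjusted p = 0.371). In Fc(mML1)B3 mice Ddit3 fell by 0.70 ± 0.18 (SE, adjusted p = 0.00340), from 10.1 ± 2.74 to 6.24 ± 1.82 CPM (SD, n = 10 and 7), while in Fc mice it was 7.69 ± 2.60 and 8.47 ± 2.51 CPM. That contrast between the protein groups is the interaction given for Ddit3 above. Atf4 in Fc(mML1)B3 mice fell by 0.23 ± 0.09 (SE, adjusted p = 0.0442), a call that was lost in 15 of 25 alternatives.

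Against this small set stand the other genes of the ATF4 pathway, 52 in number, listed with earlier results of these data known. They were grouped as one-carbon and amino acid enzymes, transporters, tRNA synthetases, and further targets of ATF4 and CHOP with relatives of the members. With Fc(mML1)B3 under the HFD, 6 of the 50 tested were higher and 2 lower, against 8.14% and 6.68% of all genes. This count of 8 became 5 without Fc mouse 4 or Fc(mML1)B3 mouse 6 or 8 and 13 without Fc(mML1)B3 mouse 5. The numbers of all genes passing without single mice are not given, and nothing is read from those counts. Limma-voom gave 13 (9 higher and 4 lower), where 3039 of all 13299 genes passed, against 1972 in edgeR. Under the standard diet 5 of 49 were higher and 11 lower, against 8.56% and 7.55%. With only the 4 Fc libraries of the shared number series, 4 were higher and 4 lower. In that fit 942 of all 13735 genes passed, against 2186 of 13570 with all Fc libraries. The median log2 fold changes of the other pathway genes were 0.05 and -0.04, beside -0.01 over all genes tested in each experiment.

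The list of tRNA synthetases, which charge tRNAs with amino acids, also holds Xpot, which exports tRNAs from the nucleus. It gave 4 higher and 0 lower of 13 under the HFD, where 8.14% of all genes were higher and 6.68% lower, and 1 higher and 2 lower of 13 under the standard diet, where 8.56% and 7.55% were. The gene that was higher under the standard diet was Xpot (0.29 ± 0.05 SE), so that 0 synthetases rose there. Tars, for threonine, rose from 66.9 to 129 CPM under the HFD (0.95 ± 0.12 SE, adjusted p = 9.36e-06, edgeR) and fell from 126 to 92.9 CPM under the standard diet (-0.44 ± 0.06 SE, adjusted p = 2.72e-05). Iars and Wars, for isoleucine and tryptophan, rose under the HFD by 0.27 ± 0.05 and 0.33 ± 0.08 on the log2 scale. Cars, for cysteine, fell under the standard diet by 0.50 ± 0.07. The response of 4 synthetases, Tars, Cars, Iars and Wars, to the protein differed between the experiments, where that of 4.4% of all genes did in this direction, from -1.38 ± 0.15 for Tars to -0.30 ± 0.08 for Iars on the log2 scale.

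The list of serine, glycine and one-carbon enzymes holds Psph, the last enzyme of serine synthesis after Phgdh and Psat1, and enzymes that use serine and its products. Of these Mthfd1l rose under the standard diet from 3.93 to 11.4 CPM (1.52 ± 0.18 SE, adjusted p = 7.77e-06, edgeR) and Mthfd2 fell by 0.75 ± 0.18 on the log2 scale. Of all genes 8.56% rose and 7.55% fell there. Under the HFD 0 of the 4 tested passed, where 14.8% of all genes did. Mthfd1l and Mthfd2 act in mitochondrial folate metabolism. Among the other amino acid enzymes, Aldh18a1, of proline synthesis, fell in both experiments, by 0.64 ± 0.18 and 0.53 ± 0.15. Cbs, of the transsulfuration pathway, fell under the standard diet from 551 to 373 CPM (-0.56 ± 0.07 SE, adjusted p = 8.79e-06), and Gpt2 and Got1, transaminases, rose by 0.51 ± 0.08 and 0.42 ± 0.11. Of the 8 amino acid transporters tested, 0 passed with the HFD, where 14.8% of all genes did. With the standard diet 1 of 8, Slc1a4, fell by 0.51 ± 0.11, where 7.55% of all genes fell. Neither transporter count is read further.

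The list of other targets of ATF4 and CHOP also holds Sesn1, Sesn3, Trib1 and Trib2, relatives of the members Sesn2 and Trib3. It gave 2 higher and 1 lower of 18 under the HFD and 1 higher and 5 lower of 18 under the standard diet. Of all genes 8.14% were higher and 6.68% lower under the HFD, near the shares of this list, and 8.56% and 7.55% under the standard diet. Gdf15, a secreted stress hormone, rose from 5.98 to 8.58 CPM under the HFD (0.53 ± 0.18 SE, adjusted p = 0.0465, edgeR) and fell from 8.68 to 5.18 CPM under the standard diet (-0.75 ± 0.18 SE, adjusted p = 0.00731). Sesn3, a sestrin like Sesn2, also rose under the HFD and fell under the standard diet, by 0.52 ± 0.16 and 0.56 ± 0.11 on the log2 scale. For both genes the response differed between the experiments, by -1.26 ± 0.26 and -1.05 ± 0.19. Atf5, a transcription factor related to ATF4, fell under the standard diet from 218 to 130.8 CPM (-0.74 ± 0.07 SE, adjusted p = 6.25e-07) and was 189 and 152 CPM under the HFD (-0.31 ± 0.15 SE, adjusted p = 0.176). Bcl2l11, a death-promoting target of CHOP, fell under the HFD by 0.49 ± 0.13. Sesn1, another sestrin, fell under the standard diet by 0.31 ± 0.08.

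Upstream of ATF4, 2 of the 10 eIF2 kinases and regulators were higher under the HFD and none lower, and 1 was higher and 1 lower under the standard diet, beside 8.14% of all genes higher under the HFD and 8.56% higher and 7.55% lower under the standard diet. Eif2ak3, which encodes the endoplasmic reticulum kinase PERK, rose from 16.1 to 21.5 CPM under the HFD (0.41 ± 0.13 SE, adjusted p = 0.0315, edgeR) and fell from 25.2 to 17.4 CPM under the standard diet (-0.53 ± 0.11 SE, adjusted p = 0.00316). Its response differed by -0.93 ± 0.19 between the experiments. Eif2b5, a subunit of the factor that phosphorylated eIF2 blocks, rose by 0.25 ± 0.06 under the HFD, and Ppp1r15b, which helps to dephosphorylate eIF2, rose by 0.34 ± 0.06 under the standard diet.

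The parallel arms of the unfolded protein response run through IRE1 and ATF6 and raise chaperones of the endoplasmic reticulum. The mRNAs listed for them moved in opposite directions in the 2 experiments, and the activity of IRE1 and ATF6 was not measured. Of 15 genes, 8 were higher and 0 lower with Fc(mML1)B3 under the HFD, with a median log2 fold change of 0.39, and 0 were higher and 9 lower under the standard diet, with a median of -0.32. Of all genes tested, 8.14% were higher under the HFD and 7.55% lower under the standard diet. The response of 10 of the 15 differed between the experiments, where that of 9.06% of all genes did. Hspa5, the chaperone BiP, ran from 341 through 496 to 733 CPM with Fc and from 594 through 973 to 1715 CPM with Fc(mML1)B3 under the HFD, and from 707 through 937 to 1212 and from 540 through 680 to 906 CPM under the standard diet. It was thus high in the Fc(mML1)B3 group of one experiment and in the Fc group of the other, with overlapping groups in both. Its log2 fold change was 0.97 ± 0.18 under the HFD (SE, adjusted p = 6.92e-04, edgeR). Hyou1, Creld2 and Manf, further factors of the endoplasmic reticulum, rose under the HFD by 1.19 ± 0.19, 1.27 ± 0.20 and 1.09 ± 0.18, and Manf, Pdia4, Sdf2l1 and Calr fell under the standard diet by 0.55 ± 0.12, 0.54 ± 0.08, 0.75 ± 0.12 and 0.32 ± 0.07.

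**Figure D4:**
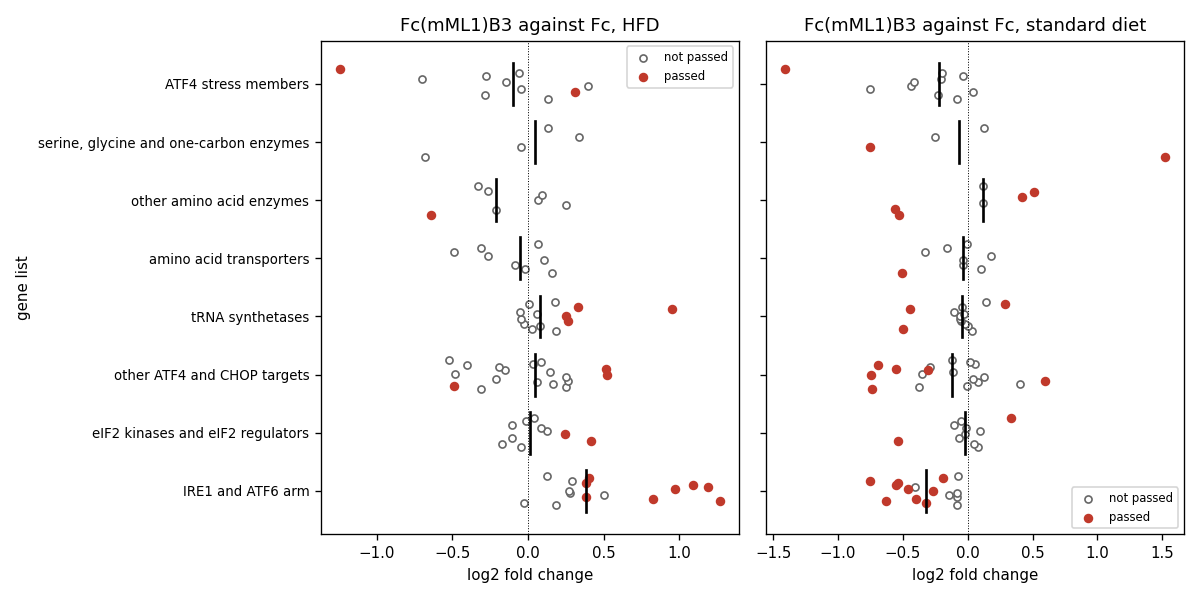
Log2 fold changes with Fc(mML1)B3 under the HFD (left) and the standard diet (right) for each gene of the listed groups. Red points passed an adjusted p of 0.05, open points did not, and the black bar is the median of the list. The IRE1 and ATF6 arm lies to the right under the HFD (8 of 15 higher) and to the left under the standard diet (9 of 15 lower). The leftmost point of each panel is Trib3, whose colour is not read, since it was chosen for this difference.

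Around Fgf21, PPARalpha, the fatty acid sensor of the liver, is its main inducer in fasting. Of 12 PPARalpha targets 3 rose with Fc(mML1)B3 under the HFD, Plin5 from 28.4 to 69.4 CPM (1.29 ± 0.15 SE, adjusted p = 4.11e-06, edgeR), Acot1 from 11.1 to 23.3 CPM (1.07 ± 0.21 SE) and Pdk4 from 9.10 to 19.3 CPM (1.08 ± 0.29 SE), and 1 rose under the standard diet, Cpt1a from 413 to 495 CPM (0.26 ± 0.06 SE). The shares of all genes that rose were 8.14% and 8.56%. Fgf21 itself passed in neither comparison. Of the 5 genes of its receptors, Fgfr1 and Fgfr2 fell and Fgfr4 rose under the HFD, by 0.59 ± 0.13, 0.50 ± 0.13 and 0.33 ± 0.08 on the log2 scale, where 6.68% of all genes fell. Klb, the co-receptor of Fgf21, fell by 0.26 ± 0.07 under the standard diet, where 7.55% of all genes fell.

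Whether the members vary together from mouse to mouse was described within each group, over 45 pairs. The median Pearson r of log2 CPM was -0.04 in Fc and 0.03 in Fc(mML1)B3 mice under the HFD, and 0.02 and -0.09 under the standard diet. In permutation tests, 0 pairs had an adjusted p below 0.05 in any group. Of the 180 tests over the 4 groups, 15 had an unadjusted p below 0.05, where 5% would be 9, and 8 of the 15 were positive. With Spearman's rho 0 pairs passed after adjustment. The pairs Ddit3 and Fgf21, Atf3 and Fgf21, Atf4 and Fgf21, Chac1 and Sesn2, and Phgdh and Atf3 had a positive r in all 4 groups, Ddit3 and Fgf21 with 0.30 to 0.61. Without the 2 mice farthest in Ddit3, however, r of that pair was -0.31 in Fc mice under the HFD. Trib3 and Phgdh ranged from -0.20 to 0.90 and Trib3 and Ddit3 from -0.84 to 0.26, with the extremes in the 7 Fc(mML1)B3 mice of the standard diet. Without the 2 mice farthest in Trib3 those extremes were 0.46 and -0.54. Trib3 and Atf4 ranged from -0.40 to 0.38.

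**Figure D5:**
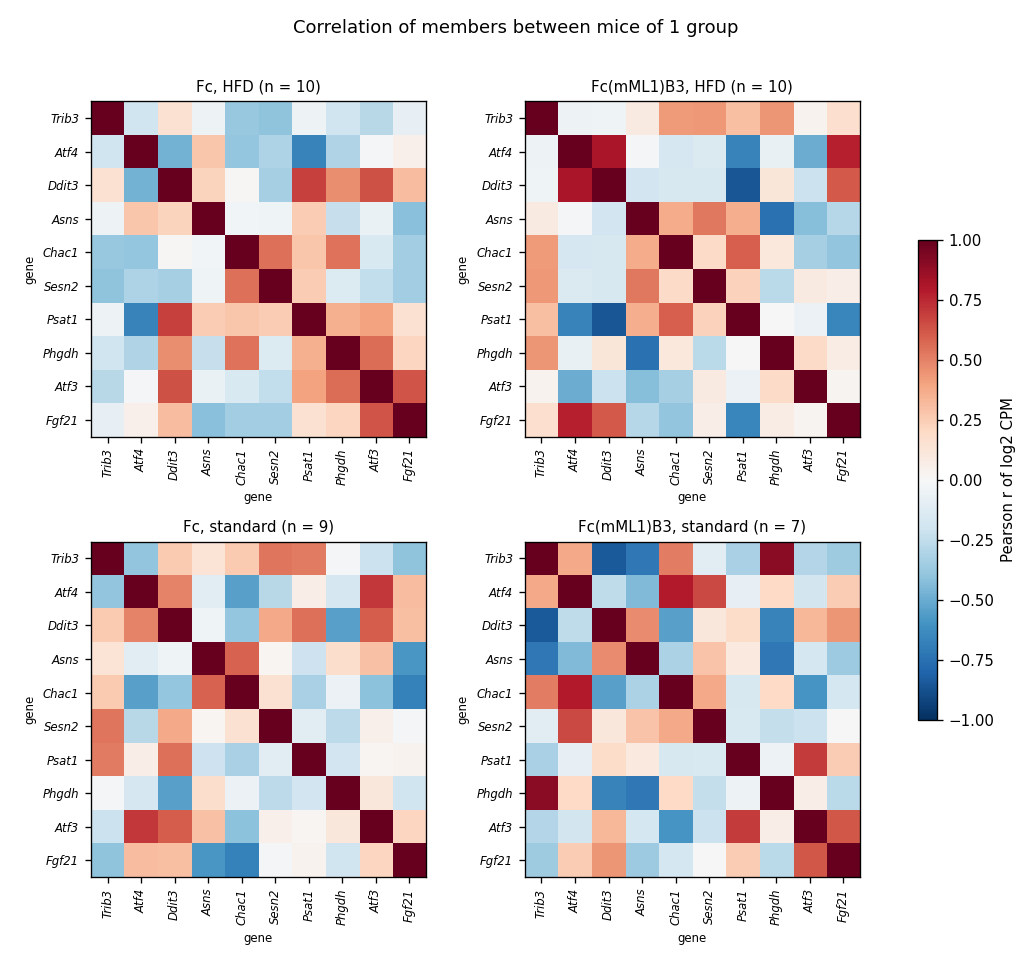
Pearson r of log2 CPM between each pair of members over the mice of 1 group, from blue (negative) to red (positive). No block of positive values recurs across the 4 panels, and their medians lie between -0.09 and 0.03.

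The genes whose levels followed Trib3 most closely from mouse to mouse, by the mean of r over the 4 groups after Fisher's transformation, were Zfp740 (0.71), Eps8l1 (0.70), Nrbp2 (0.68), Inpp5k (0.68) and Pkdrej (0.66), out of 14104 genes. The r of Zfp740 was 0.99 in the 7 Fc(mML1)B3 mice of the standard diet and 0.18 to 0.30 in the other groups, whereas that of Nrbp2 was 0.41 to 0.85 in all 4. Of the members, Phgdh came nearest, at rank 292 with a mean r of 0.41, followed by Chac1 at 1936, and Ddit3 was the farthest at 11575. These are descriptions over groups of 7 to 10 mice whose points are single libraries.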

How the data were processed

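Liver RNA of 36 mice was sequenced, and 1 table of read counts per gene was deposited for each library. Per the labels, the study's methods and the file headers, the authors trimmed reads with fastp, removed ribosomal reads with Bowtie2 2.4.5, aligned to mm10 with STAR 2.7.10a and made the counts with featureCounts of Subread 2.0.3, without regard to strand and without multi-mapping reads. The deposited counts are not normalized, and depth was 14949035 to 28466853 counts per library.

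Groups were taken from the sample titles. Each comparison was fitted on its own groups, and the interaction on all 36 libraries, with edgeR 4.0.16 in R 4.3.3 (filterByExpr, TMM, quasi-likelihood test, Benjamini-Hochberg adjustment over all genes tested, threshold 0.05). CPM were scaled with TMM factors over all 36 libraries, and log2 CPM for correlations used a prior count of 2, with permutation tests within groups. DESeq2 1.42.0, limma 3.58.1 (voom), other filters and normalization, the study's fold thresholds, a replicate block, number series and leaving out single mice were alternatives. The labels do not say more of the samples than that they are separate mice of a group.

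The members, the gene lists and the tests were chosen with earlier results of these data known. All members are named, with up to 4 genes per list and comparison of the smallest p among those that passed, the 5 genes most like Trib3, and the clock genes Arntl and Dbp. Trib1, Trib2 and genes quoted beside a named value in the other experiment were added after their values were seen. Whether replicate numbers pair the mice is not given in the labels.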

Additional observations from a re-analysis of the deposited data

Results flagged for a closer look

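Of 40 sets of a member in a group, 2 held a mouse far from the others by Dixon's criterion on the log2 CPM scale, which chance meets in about 1 in 20 groups. On that scale Chac1 in Fc(mML1)B3 mouse 2 under the HFD, at 10.7 CPM beside 3.10 CPM in the next highest mouse, did not meet it, whereas its CPM taken without the log would. Atf4 was 101.5 CPM in Fc mouse 3 under the HFD, where the group's median was 83.4 CPM. Sesn2 was 9.60 CPM in Fc mouse 3 under the standard diet, where the median was 6.33 CPM. The response of Ddit3 to Fc(mML1)B3 differed between the experiments by -0.82 on the log2 scale, with an adjusted p of 0.0440 for the interaction term of edgeR.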

How the results depend on the processing

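The log2 fold change of Trib3 ranged from -1.38 to -1.04 under the HFD and from -1.47 to -1.34 under the standard diet over 31 and 25 alternatives. Members passing numbered 2 under the HFD, 1 under the standard diet, 5 between the diets for either protein and 1 in the interaction. Other pathway genes passing numbered 8, 16, 29, 26 and 9. The member counts of this section include Trib3, which was chosen on the protein comparisons, and nothing is read from them. With an adjusted p below 0.1 and a fold above 2, these were 1 member and 0 others (HFD), 1 other (standard diet), 2 and 3 (diets, Fc), 1 and 2 (diets, Fc(mML1)B3) and 0 and 4 (interaction). With 0.05 and a fold above 1.5 they were 1 and 2 (HFD), 6 others (standard diet), 12 others in each diet comparison and 5 others (interaction). Voom gave 13 others (HFD, where 3039 of 13299 genes passed) and 2 and 16 (interaction, where 2026 of 14105 did). The 4-library series gave 0 and 2 (HFD, 705 of 13824 genes). The 4 standard diet Fc libraries gave 8 others (standard diet, 942 of 13735 genes) and 3 and 19 (Fc mice). These counts are not read as results about the members or the pathway. Without single mice the members ranged over 2 to 3, 1 to 2, 4 to 6 and 4 to 5, and others over 5 to 13, 15 to 18, 26 to 32 and 22 to 27. The causes were not tested.

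The labels give no pairing of mice by replicate number. Correlations of same-numbered deviations were -0.62 to 0.26 under the HFD, which cannot exclude a pairing. With the replicate block, 4 other pathway genes passed under the HFD and 0 members in the interaction, where Ddit3 was -0.95 with an adjusted p of 0.0763.

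Values that changed sign had not passed the test. Under the HFD these were Fgf21 at 0.088 (voom), 0.0010 (6-library series) and 0.059 (without Fc mice 7 and 8, chosen after seeing the data), Chac1 at 0.50, Sesn2 at 0.14 and Psat1 at 0.014 (4-library series) and Asns at -0.34 (6-library series). With the 4 standard diet Fc libraries, Psat1 was 0.095 under the standard diet and Ddit3 -0.15 between diets in Fc mice. In Fc mice Asns was 0.14 (voom), 0.0026 (0.5 CPM filter) and 0.048 (without mice 7 and 8), and Atf4 -0.047 (upper quartile). In the interaction Atf3 was -0.075 (voom), -0.081 (replicate block) and -0.20, and Psat1 -0.028, without mice 7 and 8. Without single mice, Chac1 ranged from -0.61 to 0.080 and Asns from -0.0088 to 0.24 (HFD), Psat1 from -0.085 to 0.046 and Asns from -0.19 to 0.0024 (standard diet), Asns from -0.087 to 0.082 (Fc mice) and Chac1 from -0.60 to 0.29 (Fc(mML1)B3 mice). Phgdh, at 2 to 56 reads per library, is the member most limited by depth.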
